A study of Mus musculus with 6 samples.

Results

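The genes described here build the cytoskeleton of neurons and the machinery that releases transmitter from their presynaptic terminals. They were chosen by name as 41 genes, and 40 of them had a row on the array that the platform annotation pairs with a single gene symbol, out of 19938 genes measured in that way. The exception was Vamp2, whose row carries a second symbol and is not analysed here. Of the 3 members with several rows (Ina, Stmn3 and Unc13a), the brightest row on average was taken.

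Expression was measured on 6 Affymetrix arrays from primary mixed cultures of neurons and glia, grown from the brain of OF1 mouse embryos at embryonic day 17 and differentiated in fetal calf serum. In 3 cultures 1,25-dihydroxyvitamin D3, the hormone form of vitamin D (1,25D), was given at 10 nM in serum-free medium without growth factors, and the 3 control cultures received vehicle in that medium. The labels call the 3 arrays of a group biological replicates and number them 1 to 3, but give neither the length of treatment nor the litter or day behind a number, so the p-values capture only how these 6 samples vary. Arrays of equal number resembled each other across the groups, and differences are therefore also given number by number.

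Neurons hold their shape with microtubules, whose stability is set by proteins such as MAP2 and doublecortin, and with neurofilaments that widen the axon. At the terminal, a vesicle is filled with transmitter, tethered at the active zone by scaffold proteins, primed, and fused with the membrane by SNARE proteins when a synaptotagmin binds calcium. 1,25D acts through the vitamin D receptor, which binds DNA with a retinoid X receptor, preferentially at direct repeats of a hexamer spaced by 3 bases.

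None of the 40 neuron genes rose or fell past the threshold in 1,25D cultures (limma, Benjamini-Hochberg adjusted p under 0.05 over all 19938 genes), a threshold passed by 0.0251% of all genes. At an unadjusted p under 0.05, 2 members were lower and 0 were higher, while 0.527% of all genes were lower and 0.953% higher by that mark. The median log2 difference, 1,25D minus control, was -0.02 over the members and 0.01 over all genes. Of the 40 members 22 (55%) were below 0, against 47% of all genes. The mean differences lay between -0.48 for Camk2b and 0.43 for Sv2b, and no member reached a difference of 1.5-fold, which 0.492% of all genes did. The 95% interval of the difference stayed within 2-fold either way for 35 members (87.5%), against 98% of all genes, and within 1.5-fold for 27 (67.5%), against 88.1%. With the replicate number as a block these were 39 and 36 members, against 99.4% and 95.9% of all genes. With that block, 0.0903% of all genes and none of the members were called, and 4 members (Rbfox3, Camk2b, Uchl1 and Map2) were lower and 0 higher at an unadjusted p under 0.05, against 2.61% and 3.16% of all genes. In a bulk culture, fewer neurons and less RNA per neuron cannot be told apart.

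**Figure D1:**
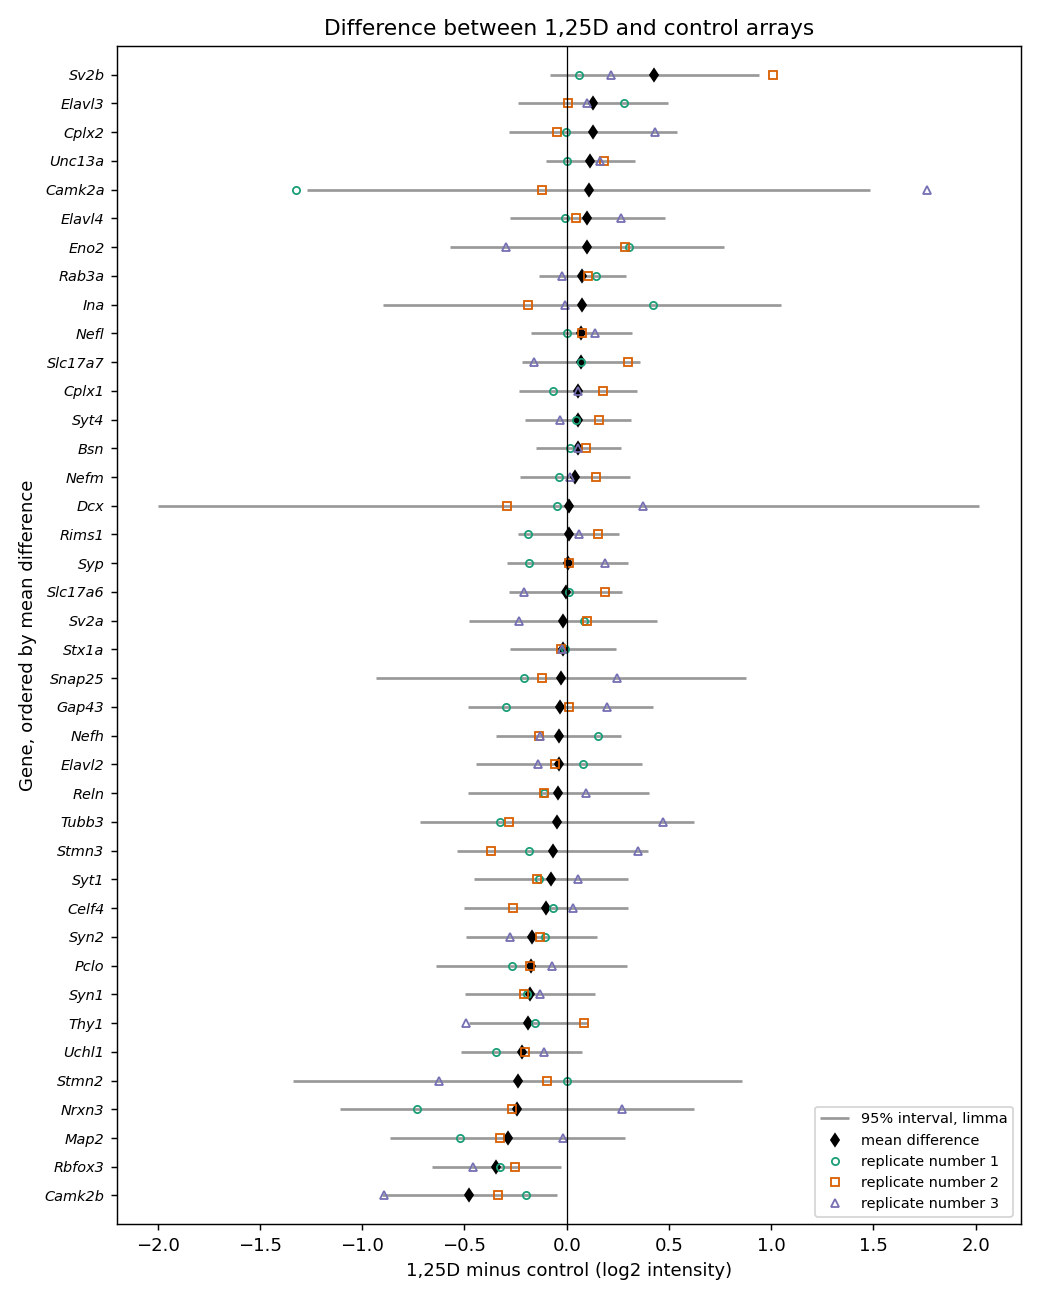
Difference between 1,25D and control arrays in log2 intensity (x axis) for the 40 neuron genes (y axis, ordered by mean difference); diamonds are means, bars are limma's 95% intervals without the block, and open symbols are the differences at replicate numbers 1, 2 and 3. Means run between -0.48 for Camk2b and 0.43 for Sv2b, and the bars of 2 members, Camk2b and Rbfox3, leave out 0.

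The 2 members with the smallest p-values are neuronal regulators and were lower in 1,25D cultures. Rbfox3 encodes the splicing factor known as NeuN, a nuclear marker of mature neurons. It had log2 intensities of 7.25, 7.49 and 7.52 in 1,25D cultures, against 7.57, 7.74 and 7.98 in control cultures. It was the single member whose groups did not overlap, a separation downwards seen for 1.52% of all genes. The difference was -0.34 ± 0.14 (SE, unadjusted p = 0.036, adjusted p = 1.00 by limma), and it was -0.32, -0.25 and -0.46 at replicate numbers 1, 2 and 3. With the block its adjusted p was 0.50.

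Camk2b, the beta subunit of the calcium/calmodulin-dependent kinase II that binds actin at synapses, was at 9.38, 9.03 and 9.16 in 1,25D cultures and at 9.58, 9.36 and 10.05 in control cultures. The groups overlapped slightly, since the lowest control array lay just under the highest 1,25D array. The difference was -0.48 ± 0.18 (SE, unadjusted p = 0.034, adjusted p = 1.00 by limma), and by number it was -0.20, -0.34 and -0.89, most at number 3.

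Sv2b, a vesicle membrane glycoprotein, had the highest difference, 0.43 ± 0.22 (SE, unadjusted p = 0.089 by limma). It stood at 7.22, 7.75 and 6.92 in 1,25D cultures, against 7.16, 6.74 and 6.71 in control cultures. A single array carried most of this: the difference was 1.01 at replicate number 2, and 0.06 and 0.22 at numbers 1 and 3. Without 1,25D replicate 2 the difference was 0.20.

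RefSeq promoter sequences of GRCm38.p6 were available for 30 of the 41 genes, with 48 start sites. In the 250 bases before each start, searched on both strands, AGGTCA repeated in the same direction after 3 bases was found at 0 of 48 starts, and the relaxed form, GNTCA repeated after 4 bases, also at 0 of 48, against 0.00609% and 0.548% of all 32851 promoters. The lone half-sites were found too: AGGTCA at 6.25% of the members' starts and 14% of all, and AGTTCA at 10.4% and 11.8%. GC boxes (GGGCGG) were present at 47.9% of the members' starts and 32.7% of all, TATAAA at 12.5% and 12.4%, and E-boxes (CANNTG) at 62.5% and 66.2%. Several starts of a gene can overlap, so they are not independent, and a match is a description of letters and not of a binding site. The 250 bases before the farthest upstream start are printed for Rbfox3, Camk2b and Sv2b, the members with the smallest p-values for 1,25D, and for Dcx and Ina, whose levels differed between replicate numbers. Capitals mark GC boxes, TATAAA and E-boxes on either strand. Half-sites were searched as well and are in none of the 5.
Rbfox3, chr11:118761042-118761291, strand -: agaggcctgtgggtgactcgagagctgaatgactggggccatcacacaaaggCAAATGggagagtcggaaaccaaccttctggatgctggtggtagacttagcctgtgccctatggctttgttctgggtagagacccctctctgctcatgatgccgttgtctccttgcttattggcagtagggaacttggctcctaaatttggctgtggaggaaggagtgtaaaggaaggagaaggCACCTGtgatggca
Camk2b, chr11:6065749-6065998, strand -: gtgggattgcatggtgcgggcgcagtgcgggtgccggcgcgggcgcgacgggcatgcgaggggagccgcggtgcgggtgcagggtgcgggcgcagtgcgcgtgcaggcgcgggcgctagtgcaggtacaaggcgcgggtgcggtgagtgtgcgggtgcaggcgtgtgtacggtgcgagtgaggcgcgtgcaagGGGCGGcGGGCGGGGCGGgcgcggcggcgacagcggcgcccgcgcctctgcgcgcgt
Sv2b, chr7:75309263-75309512, strand -: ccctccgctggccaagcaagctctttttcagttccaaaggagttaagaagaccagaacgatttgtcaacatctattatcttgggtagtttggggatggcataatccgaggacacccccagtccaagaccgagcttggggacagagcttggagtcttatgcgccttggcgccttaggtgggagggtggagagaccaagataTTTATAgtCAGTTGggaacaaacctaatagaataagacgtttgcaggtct
Dcx, chrX:143933220-143933469, strand -: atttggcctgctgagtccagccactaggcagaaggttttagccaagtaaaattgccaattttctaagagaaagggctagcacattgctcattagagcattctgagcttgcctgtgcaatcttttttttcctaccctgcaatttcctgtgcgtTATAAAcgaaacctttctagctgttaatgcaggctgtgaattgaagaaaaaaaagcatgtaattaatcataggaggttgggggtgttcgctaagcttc
Ina, chr19:47014431-47014680, strand +: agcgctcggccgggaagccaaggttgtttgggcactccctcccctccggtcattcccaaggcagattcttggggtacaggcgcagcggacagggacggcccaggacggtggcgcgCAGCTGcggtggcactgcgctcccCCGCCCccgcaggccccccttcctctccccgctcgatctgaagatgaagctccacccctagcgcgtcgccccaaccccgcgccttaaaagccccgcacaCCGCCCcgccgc
The stretch before Camk2b holds 3 GC boxes, partly overlapping, near its end and the one before Ina holds 2, while those before Sv2b and Dcx hold a TATAAA and no GC box.

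Among the tubulin and microtubule genes none passed, and 4 of 5 were below 0. Tubb3, the neuron-specific beta-tubulin, was at 6.75, 7.47 and 7.87 in 1,25D cultures, against 7.07, 7.75 and 7.41 in control cultures. It was lowest at replicate number 1 in both groups, and its differences of -0.33, -0.28 and 0.47 changed sign between numbers. Map2, which stabilises dendritic microtubules, had 10.11, 10.91 and 10.93 in 1,25D cultures and 10.63, 11.24 and 10.95 in control cultures, again lowest at number 1 in each group. Its difference was -0.29 ± 0.25 (SE, unadjusted p = 0.28 by limma) without the block and -0.29 ± 0.11 (SE, unadjusted p = 0.036) with it, with adjusted p-values of 1.00 and 0.84. Without 1,25D replicate 1 it was -0.019. Stmn3, a stathmin-type microtubule destabiliser, had a difference of -0.07 ± 0.20 (SE).

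Dcx, doublecortin, which marks newly formed migrating neurons, had the largest spread of all members. Its log2 intensity was 6.78, 8.80 and 9.76 in 1,25D cultures and 6.83, 9.10 and 9.39 in control cultures. Replicate number 1 was low and numbers 2 and 3 were high in either group, a 6.8-fold range between number means, while the difference between the groups was 0.01 ± 0.86 (SE) without the block and 0.01 ± 0.13 with it. Stmn2, a growth-associated stathmin of axons, was at 8.23, 7.89 and 9.08 in 1,25D cultures and at 7.98 and 9.71 in control replicates 2 and 3, with 8.23 again in control replicate 1. It was highest at number 3 in both groups, and its difference was -0.24 ± 0.47 (SE).

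The intermediate filament genes were likewise without a call, with differences between -0.04 and 0.07. Ina, alpha-internexin, a filament protein of young neurons, had 7.33, 8.14 and 8.35 in 1,25D cultures, against 6.91, 8.33 and 8.36 in control cultures. Its low arrays were those of replicate number 1 in both groups. The other row of Ina, dimmer, showed the same order of number 1 below the others, at 5.92, 6.23 and 6.86 in 1,25D cultures and 5.74, 6.48 and 6.36 in control cultures. The differences were 0.07 ± 0.11 for Nefl, 0.04 ± 0.12 for Nefm and -0.04 ± 0.13 for Nefh (SE), the light, medium and heavy neurofilament chains. Nefl and Nefm averaged below the lower quartile of genes, where the array compresses differences, as did Slc17a6.

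**Figure D2:**
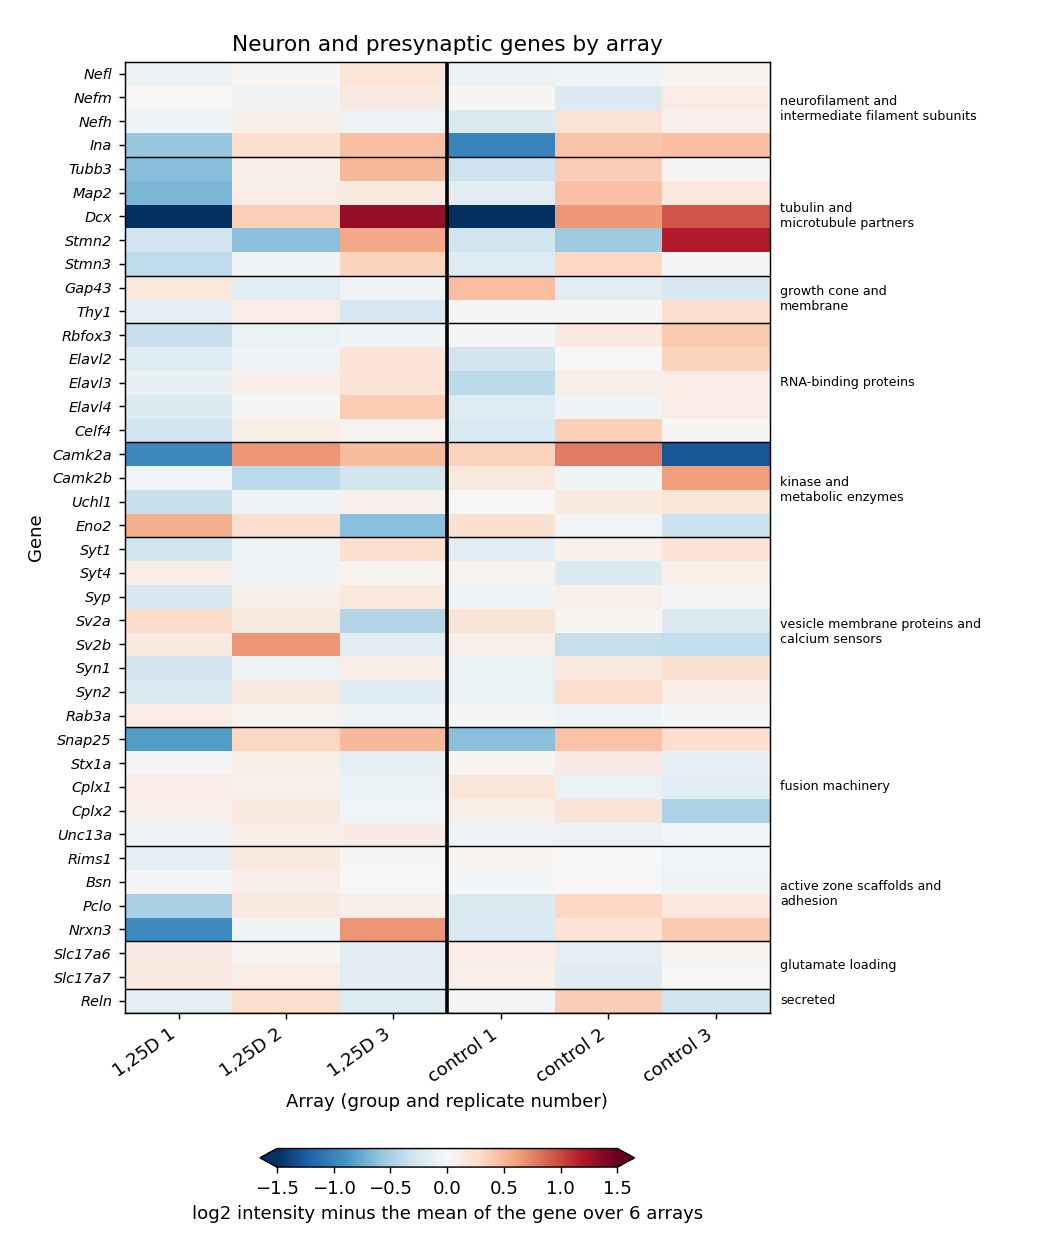
Heat map of the 40 neuron genes (y axis, grouped by role) in the 3 arrays from 1,25D cultures and the 3 from control cultures (x axis), coloured by log2 intensity minus the mean of the gene over the 6 arrays; colours saturate at 1.5. Dcx, Ina and Snap25 are blue in both arrays of replicate number 1, and Camk2a is blue in 1,25D replicate 1 and control replicate 3.

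Of the RNA-binding proteins other than Rbfox3, the Hu proteins Elavl2, Elavl3 and Elavl4, which stabilise neuronal messages, had differences of -0.04, 0.13 and 0.10, and Celf4, a regulator of splicing and translation, -0.10. Elavl3 was at 8.34, 8.55 and 8.65 in 1,25D cultures, against 8.06, 8.54 and 8.56 in control cultures. It was higher at all 3 numbers, by 0.28, 0.01 and 0.10, with groups that overlapped. All 5 RNA-binding members had their lowest mean at replicate number 1.

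Camk2a, the alpha subunit of the same kinase, gave opposite differences in different cultures. It was at 9.06, 10.69 and 10.50 in 1,25D cultures and at 10.38, 10.81 and 8.74 in control cultures. The low arrays were 1,25D replicate 1 and control replicate 3, so the difference was -1.32 at number 1, -0.12 at number 2 and 1.76 at number 3, with a mean of 0.11 ± 0.59 (SE). Uchl1, an abundant neuronal deubiquitinase, had 8.72, 9.00 and 9.13 in 1,25D cultures and 9.06, 9.20 and 9.24 in control cultures. It was lower at all 3 numbers, with a difference of -0.22 ± 0.13 (SE, unadjusted p = 0.13 by limma), and its groups overlapped. Eno2, neuron-specific enolase, had a difference of 0.10 ± 0.29 (SE). Thy1, a surface glycoprotein of axons, was at 8.64, 8.89 and 8.53 in 1,25D cultures and at 8.80, 8.80 and 9.02 in control cultures, overlapping at replicate number 2, with a difference of -0.19 ± 0.13 (SE). Gap43, a growth cone phosphoprotein, had a difference of -0.03 ± 0.19 (SE).

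In the vesicle membrane group, none of 8 members passed and 4 were below 0. Syt1, the calcium sensor of fast release, had 7.81, 8.04 and 8.36 in 1,25D cultures, against 7.95, 8.19 and 8.31 in control cultures. Syp, synaptophysin, had 7.89, 8.22 and 8.29 in 1,25D cultures and 8.07, 8.21 and 8.10 in control cultures. The groups overlapped for both genes, with differences of -0.08 ± 0.16 and 0.00 ± 0.13 (SE). Syn1, synapsin I, which ties vesicles to the cytoskeleton, was at 8.20, 8.42 and 8.59 in 1,25D cultures and at 8.40, 8.63 and 8.72 in control cultures. Within each number it was lower with 1,25D, by -0.20, -0.21 and -0.13, although the groups overlapped, and Syn2 was also lower at each number with a mean of -0.17 ± 0.14 (SE). The difference of Syn1 was -0.18 ± 0.14 (SE, unadjusted p = 0.23 by limma). Syt4, a synaptotagmin that does not drive fast release, Sv2a and Rab3a, the vesicle GTPase, had differences of 0.06, -0.02 and 0.08.

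None of the 9 measured fusion, active zone and adhesion genes passed. Snap25, a SNARE of the plasma membrane, stood at 7.15, 8.29 and 8.48 in 1,25D cultures and 7.36, 8.41 and 8.23 in control cultures. As for Dcx, number 1 was low in each group, while the group difference was -0.03 ± 0.39 (SE). Cplx2, a complexin that clamps and primes the SNARE complex, was at 8.01, 8.08 and 7.89 in 1,25D cultures and at 8.01, 8.13 and 7.46 in control cultures. Only control replicate 3 stood low, and without it the difference, 0.13 ± 0.18 (SE) over all arrays, was -0.08. Stx1a, the partner SNARE of Snap25, Cplx1 and Unc13a, the priming factor Munc13-1, had differences of -0.02 ± 0.11, 0.06 ± 0.12 and 0.12 ± 0.09 (SE). The active zone scaffolds Bsn, Rims1 and Pclo had 0.06 ± 0.09, 0.01 ± 0.11 and -0.17 ± 0.20 (SE). Nrxn3, a presynaptic adhesion protein, had -0.24 ± 0.37 (SE), with -0.73, -0.27 and 0.27 at numbers 1, 2 and 3. The vesicular glutamate transporters Slc17a7 and Slc17a6 had 0.07 ± 0.12 and -0.0042 ± 0.12 (SE), and Reln, the secreted protein of Cajal-Retzius cells and interneurons, had -0.04 ± 0.19 (SE).

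Counting the sign at each replicate number, 8 members were lower with 1,25D at all 3 numbers (Rbfox3, Camk2b, Map2, Uchl1, Syn1, Syn2, Pclo and Stx1a), or 20%, against 11% of all genes. By the same count 3 members were higher at all 3 numbers (Sv2b, Elavl3 and Bsn), or 7.5%, against 14.8% of all genes. The member median was -0.06 at number 1, -0.05 at number 2 and 0.02 at number 3, against 0.00, 0.03 and -0.01 over all genes.

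The range between the means of the 3 replicate numbers had a median of 0.42 for the members and 0.24 for all genes on the log2 scale. It exceeded the size of the 1,25D difference in 35 of 40 members (87.5%), no larger a share than the 90.6% of all genes, and the median SD among control arrays was 0.22 and 0.15. Across the 40 members, deviations from the group mean correlated at 0.724, 0.766 and 0.511 between the 1,25D and control arrays of numbers 1, 2 and 3, against 0.512, 0.645 and 0.457 across all genes. Arrays of unlike number correlated between -0.765 and 0.365 across the members, highest for 1,25D replicate 3 with control replicate 2. Across all genes they correlated between -0.513 and -0.0116. Deviations within a group sum to 0, so high values at equal numbers push the others down. These are correlations over genes, which are not independent replicates. In a test chosen after the values were seen, limma's F test of the replicate number in a fit that also held the treatment, 4 members differed between numbers at an adjusted p under 0.05 (10%), against 1.73% of all genes, and 21 at an unadjusted p under 0.05, against 29.5% of all genes. The 4 called were Dcx (range 2.77, adjusted p = 0.011), Stmn2 (1.46, adjusted p = 0.037), Ina (1.23, adjusted p = 0.039) and Snap25 (1.10, adjusted p = 0.037). Each number rests on 2 arrays, and the calls need the variance shared across genes: without moderation the F test called 0 members and 0 of all genes. At an unadjusted p under 0.05 that F test had 8 of 40 members, against 14.1% of all genes (2819). Without replicate number 2, 0 members and 0 genes were called. At an unadjusted p under 0.05 that setting had 21 of 40 members, against 19.6% of all genes (3910). Without number 1, 4 of 40 members (Dcx, Stmn2, Eno2 and Reln) and 6.05% of all genes were called. Without number 3 it was 9 of 40 members and 5.44% of all genes. Ina and Snap25 were called without number 3 but not without number 1, and Stmn2 the other way round. Stmn2 holds the same value in both arrays of number 1, as do Nefl and Unc13a, which lowers its residual spread and fixes that difference at 0. An identical value in both arrays of some replicate number was held by 5.52% of all genes.

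**Figure D3:**
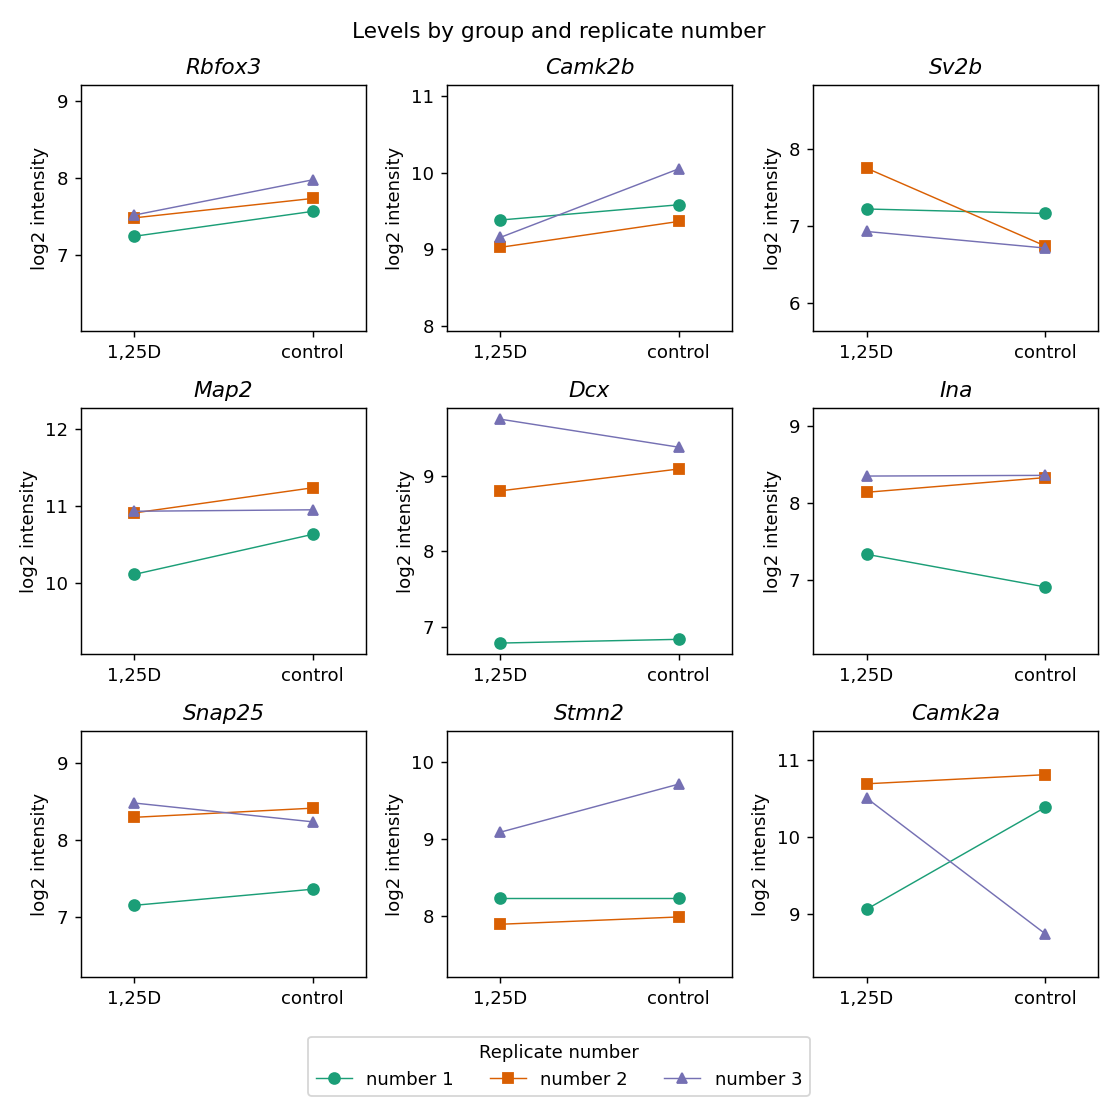
Log2 intensity (y axis) of 9 neuron genes in 1,25D and control cultures (x axis), 1 point for each array, with lines joining arrays of the same replicate number. At each number Rbfox3, Camk2b and Map2 are lower and Sv2b is higher in the 1,25D culture. Dcx, Ina and Snap25 separate number 1 from the others in both groups, and the lines of Camk2a slope in opposite directions at numbers 1 and 3.

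In 23 of 40 members (57.5%) the lowest mean was that of replicate number 1, against 24.4% of all genes. In 19 of 40 (47.5%) number 1 was the lowest in both groups, against 13.2% of all genes. Gap43, Eno2 and Sv2a were among the members with number 1 highest. Outside the members, number 1 was lowest in 16 of 54 other presynaptic release genes and in 15 of 36 other cytoskeleton and transport genes. Vesicle retrieval genes had it lowest in 8 of 19, and other neuronal RNA-binding proteins and kinases in 13 of 25. The mean log2 intensity over the 40 members was 7.91, 8.20 and 8.23 in the 1,25D cultures and 8.01, 8.23 and 8.20 in the control cultures of numbers 1, 2 and 3. Markers of inhibitory neurons had number 1 lowest in 7 of 8 genes, with means of 7.59, 8.06 and 8.01 in 1,25D cultures and 7.60, 7.92 and 7.96 in control cultures. Markers of astrocytes had it lowest in 0 of 10 genes, with list means between 10.96 and 11.45 in 1,25D cultures and between 11.00 and 11.40 in control cultures. The counts were 3 of 9 for the oligodendrocyte lineage, 4 of 8 for neural progenitors, 0 of 10 for microglia, 1 of 8 for ependymal cells, 0 of 7 for endothelial cells and 1 of 7 for fibroblasts and pericytes. The part of these cells in the member values was not tested.

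**Figure D4:**
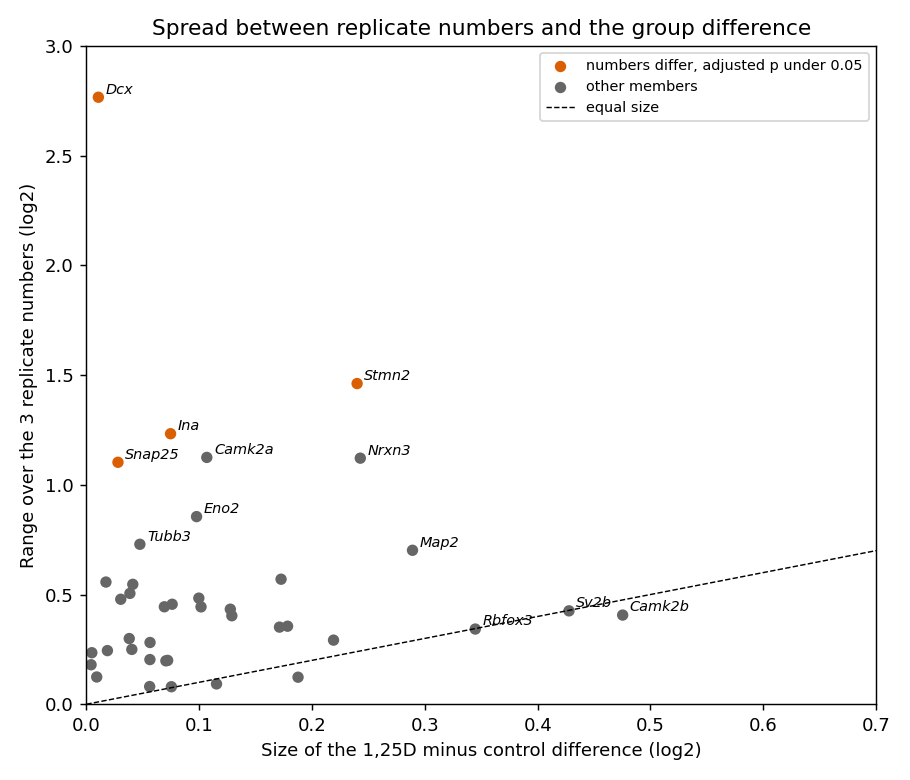
Range over the means of the 3 replicate numbers (y axis, log2) against the size of the 1,25D minus control difference (x axis, log2) for the 40 neuron genes, with a dashed line of equal size and orange points for the 4 genes that differed between numbers. Of the 40 points 35 lie above the line (87.5%, against 90.6% of all genes), and Dcx stands highest at 2.77.

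Related genes that are no members were not called either. Of 36 other cytoskeleton and transport genes 0 rose and 0 fell, with a median difference of -0.01. Dpysl3, a collapsin response mediator that binds tubulin, had the smallest p, with 10.72 ± 0.26 in 1,25D cultures and 10.25 ± 0.07 in control cultures (SD, n = 3 each, limma's unadjusted p = 0.011 and adjusted p = 1.00), and Dclk1, a doublecortin-like kinase, had a difference of -0.25 ± 0.13 (SE). Among 54 other presynaptic release genes none passed either, and the median was 0.00. Cplx3, another complexin, had a difference of 0.38 ± 0.13 and Slc18a3, the vesicular acetylcholine transporter, of 0.29 ± 0.11 (SE, unadjusted p = 0.022 and 0.032 by limma). The 19 vesicle retrieval genes had a median of -0.04 and the 25 other neuronal RNA-binding proteins and kinases one of 0.01, again with 0 called. Their smallest p-values were those of Cltb, a clathrin light chain, at -0.27 ± 0.15, Amph, amphiphysin, at -0.17 ± 0.12, Camk1d at -0.28 ± 0.13 and Camk2n1, an inhibitor of kinase II, at 0.14 ± 0.09 (SE).

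None of the 67 measured markers of other cells was called for 1,25D, and the list medians lay between -0.12 for ependymal cells and 0.09 for inhibitory neurons. The genes with the smallest p in each list had differences of -0.27 (Aldh1l1) and 0.18 (Fgfr3) for astrocytes, -0.28 (Olig1) and 0.08 (Sox10) for the oligodendrocyte lineage, 0.19 (Cx3cr1) and 0.12 (Aif1) for microglia, -0.07 (Vim) and 0.06 (Hes5) for progenitors, 0.13 (Spag6) and -0.34 (Dnah5) for ependymal cells, 0.17 (Cdh5) and -0.10 (Flt1) for endothelial cells, 0.48 (Pdgfrb) and 0.42 (Col1a1) for fibroblasts and pericytes, and 0.11 (Slc32a1) and -0.10 (Sst) for inhibitory neurons, of which Slc32a1 is also among the presynaptic release genes. Ependymal list means spanned 7.79 to 7.96 in 1,25D cultures and 7.45 to 8.25 in control cultures, the widest spread of any marker list among controls.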

How the data were processed

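Per the submitters' processing notes, the authors made the deposited intensity values with RMA (Affymetrix Expression Console). The version and the filters, if any, are not stated in these sources. The table is on a linear scale with 1 value per transcript cluster, and log2 was taken. Without detection calls, genes above background cannot be told from those below. Of 35556 rows, 21789 had 1 symbol in GEO's platform annotation, 1621 several, and 12146 are unnamed here. The median intensity over genes was between 240.4 and 252.9 on the 6 arrays. Each group holds 3 arrays, and an array has no sequencing depth to report.

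All genes were fitted with limma 3.58.1 in R 4.3.3 (lmFit, eBayes without a trend, no dim filter), 1,25D minus control, two-sided, with Benjamini-Hochberg adjustment over 19938 genes and a threshold of 0.05. An exact permutation test of 3 arrays against 3 cannot give a two-sided p under 0.1. The code was tested on simulated data. Deviations from the group means correlated over all genes at 0.512, 0.645 and 0.457 for arrays of equal number 1, 2 and 3, so a fit with the replicate block stands beside the other; the labels themselves state no pairing. Alternatives are given in the closing section.

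The members and the lists were chosen with earlier results of these data known. All members may be named. Values in all 6 arrays are given for Tubb3, Map2, Rbfox3, Snap25, Syt1 and Syp, for the 6 smallest unadjusted p-values, the 3 highest and 3 lowest differences, the 4 largest SDs among controls, and members whose groups did not overlap. From each other list the 2 smallest p-values are named where none was called.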

Additional observations from a re-analysis of the deposited data

How the results depend on the processing

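None of the members tested was called for 1,25D in any of the 21 alternatives, which changed normalisation, the dim filter, the variance model, the rows of a gene, the block or the arrays (0 to 11 members at an unadjusted p under 0.05, against 1.22% to 12.6% of all genes; the 11 and the 12.6% are both from the block without number 3). Rbfox3, Camk2b, Map2, Uchl1, Thy1, Syn1 and Sv2b kept their sign in all 21, but not their size. Differences ranged between -0.44 and -0.24 for Rbfox3, -0.63 and -0.27 for Camk2b, -0.44 and -0.019 for Map2, -0.31 and -0.10 for Uchl1, -0.32 and -0.035 for Thy1, -0.27 and -0.077 for Syn1, and 0.14 and 0.61 for Sv2b, nearest to 0 without 1,25D replicate 1 for Map2, Uchl1 and Syn1, without control replicate 3 for Rbfox3, with the block without number 3 for Camk2b and Thy1, and with the block without number 2 for Sv2b. The number of all genes called, 5, was 18 with the replicate block, 22 with the block and without genes of identical values, 25 with the block after quantile normalisation, 0 without moderation (339 at an unadjusted p under 0.05) and 0 with every row of the table tested (521). It was between 0 and 2 with 1 array left out, and with the block it was 40, 3 and 45 without replicate number 1, 2 or 3. The member median was between -0.068 and 0.031 with 1 array left out, being above 0 without 1,25D replicate 1 or control replicate 2. The signs of small differences turned: Syp was -0.00092 after quantile normalisation, with and without the block, -0.0033 after median centring and -0.0056 with array weights. Dcx was -0.0013 after quantile normalisation, with and without the block. Snap25 was 0.015 and Camk2a -0.12 with array weights. With 1 array left out, without the block, differences ranged between -0.30 and 0.26 for Tubb3, -0.35 and 0.38 for Snap25, -0.22 and 0.054 for Syt1, -0.075 and 0.13 for Syp, -0.033 and 0.22 for Elavl3, -0.077 and 0.26 for Cplx2, -0.79 and 0.84 for Dcx, -0.51 and 0.62 for Camk2a, -0.58 and 0.29 for Stmn2, and -0.40 and 0.38 for Ina. With the block and 1 number left out, they ranged between -0.31 and 0.092 for Tubb3 (0.071 without number 2), -0.16 and 0.063 for Snap25 (0.017 without number 2), -0.088 and 0.10 for Syp, -0.024 and 0.21 for Cplx2, -0.17 and 0.16 for Dcx, -0.72 and 0.82 for Camk2a, and -0.10 and 0.21 for Ina. The cause of these turns was not tested. Of all genes, 345 differed between replicate numbers, against 227 without the dimmest 25%, 0 without moderation, and 0 to 1206 with 1 number left out; for the members the count was 4, against 0 without moderation and 0 to 9 with 1 number left out. The block changed no other call. The block with quantile normalisation or without identical values, and all tests between replicate numbers, were chosen after seeing the data.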

Other observations

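The other lists held 67 markers and 134 related genes, with 1 gene in both. Of these, another 6 differed between replicate numbers at an adjusted p under 0.05 by the F test chosen after the values were seen. That threshold was passed by 1.73% of all genes, and by 0 genes without moderation or without number 2. The 6 were markers of inhibitory neurons (Dlx1 and Gad2) and of the oligodendrocyte lineage (Olig1), and the neuronal genes Crmp1, Napb and Syt12. Dlx1, a homeobox factor of inhibitory neuron precursors, had log2 intensities of 7.94, 8.97 and 9.55 in 1,25D cultures and 7.80, 8.98 and 9.25 in control cultures (limma's adjusted p = 0.015 between numbers). Gad2, which makes GABA, had 6.67, 7.28 and 7.29 in 1,25D cultures and 6.56, 7.32 and 7.47 in control cultures (adjusted p = 0.045). Olig1, of the oligodendrocyte lineage, had 9.01, 9.72 and 10.00 in 1,25D cultures and 9.37, 9.81 and 10.39 in control cultures (adjusted p = 0.037). In these 3 genes number 1 was lowest in both groups, as for Dcx, Ina and Snap25. Crmp1 and Napb had their lowest mean at number 1 as well, and Syt12 at number 3, where it stood at 6.92 in the 1,25D culture and 6.81 in the control culture.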
